A study of Mus musculus with 6 samples.

Results

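The stefin A family and cystatin B were followed in bone marrow myeloid cells by the transcripts of 6 genes, namely Cstdc4, Stfa1, Stfa2, Stfa2l1, Stfa3 and Cstb, out of 32285 genes in the count matrices. The genes were taken by symbol, and they were chosen by measured levels in these data, because Cstdc4 and Stfa2l1 are the transcripts that set 1 neutrophil cluster, cluster 2, apart from the rest. For that reason the levels between clusters are given as a description, without a test, while the 2 skeletal sites were compared with tests on the libraries. The site tests within a cluster take the clusters as given.

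Stefins are small inhibitors of papain-like cysteine proteases, the cysteine cathepsins, and they act inside the cell, in contrast to the secreted cystatins such as cystatin C. Humans have a single stefin A gene, whereas in the mouse the gene has been copied into an array of close relatives whose transcripts are abundant in neutrophils and in skin. Cystatin B, also called stefin B, comes from a single gene, is found in most cell types and is rich in macrophages and other phagocytes, which carry many cathepsins in their lysosomes.

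Cells positive for the integrin CD11b were taken with magnetic beads from the marrow of C57Bl/6 mice aged 2 months, and 3 femur and 3 mandible libraries were made from them with droplet 3′ chemistry. Femur replicate 1 was female and the other 5 libraries were male, so that sex and this library cannot be told apart, and no mandible library was female. The labels name femurs and tibiae as the source of the femur marrow and the methods name femurs alone. Mandibular marrow was collected after removal of the molars, and how many mice went into a library is not given in the sources used here. The library names carry numbers of which 6 and 7 occur at both sites, without a statement of what the number marks.

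A total of 69776 cells were kept by the authors, 7763 to 22797 per library, with a median of 6924 to 9158 unique molecular identifiers (UMIs, each standing for 1 captured transcript) per cell. Library totals ranged from 82962160 to 244946998 UMIs. Femur replicate 1 stood apart, since 18.5% of its barcodes had been removed against 1.88 to 5.14% in the others. Pairs of libraries shared 15 to 70 cell barcodes. The clusters are the 9 deposited by the authors. By markers, cluster 4 held neutrophil precursor-like cells (Elane at a mean of 1058 CPM, that is UMIs per 1000000 UMIs of the summed cells), cluster 0 immature neutrophil-like cells (Ngp at 35098 CPM), clusters 3, 2 and 1 late neutrophil-like cells (Retnlg at 27124, 23043 and 16355 CPM), cluster 5 monocyte-like cells (Ccr2 at 748 CPM), cluster 6 B cell-like cells (Ebf1 at 4982 CPM) and cluster 8 erythroid-like cells (Hbb-bs at 75576 CPM). Mmp9, Cxcr2 and Csf3r were likewise higher in clusters 3, 2 and 1 than in clusters 0 and 4. The other late neutrophil genes did not all follow. Mmp8 was at 2111 CPM in cluster 1 and 2589 CPM in cluster 0, and Il1b at 63.5 CPM in cluster 3 and 126 CPM in cluster 0. S100a8 and S100a9 were highest in cluster 0. Among the immature neutrophil genes, Ltf, Ngp and Lcn2 were highest in cluster 0, but Camp was highest in cluster 4. Camp was at 43246 CPM in cluster 4 and 30395.5 CPM in cluster 0, and Ngp was at 32564 CPM in cluster 4. Cluster 7 was left unnamed, with a median mitochondrial share of 6.78%. Cluster 8 also held neutrophil transcripts, with S100a8 at 85495 CPM and Ngp at 16626 CPM. Itgam, which encodes CD11b, was lowest in cluster 6, at 198 CPM. The summed level of 4 enamel and dentin genes (Amelx, Ambn, Enam and Dspp) in cluster 2 was 15.0 to 68.6 CPM in the mandible and 0 to 0.0739 CPM in the femur.

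The 5 stefin A members lie within an array of 10 measured or annotated stefin A genes on chromosome 16 of the build GRCm38, and Cstb lies on chromosome 10 (chr10:78425669-78427622, plus strand). From left to right, Stfa2l1 (chr16:36156811-36161953), Cstdc4 (chr16:36184212-36188111) and Stfa1 (chr16:36276951-36285373) were annotated on the plus strand, and Stfa2 (chr16:36403992-36408457) and Stfa3 (chr16:36450537-36455392) on the minus strand. Every one of the 6 genes has 3 exons. The transcripts of Stfa2l1 and Stfa2 matched at 96.5% of 367 aligned bases, with a longest shared run of 97 bases, and those of Stfa2l1 and Cstdc4 at 77.8%. Cstb matched the others at 55.8 to 63.1%. Of all 90-base windows along a transcript, 13.8% of those of Cstdc4 also occurred unchanged in another gene of the family, as did 2.42% for Stfa2l1, 2.59% for Stfa1 and 2.09% for Stfa2, while Stfa3 and Cstb had no such window. A read from a shared window cannot be given to 1 gene, which concerns Cstdc4 above all. Where these windows lie along the transcript was not looked at, and the chemistry reads the 3′ end. The shares of windows therefore do not measure how uncertain the counts are. Whether counting used the strand is not given in the sources used here.

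The 250 bases before the transcription start are shown for 3 members, because the members differ in where they were expressed while these upstream stretches are close relatives of each other. Stfa2l1 and Cstdc4 were the pair highest in cluster 2, and Stfa3 was nearer in level between clusters 2 and 3. The sequences are RefSeq promoters of the build GRCm38.p6, which held 5 of the 6 members (no entry for Cstb), read 5′ to 3′ along the gene. They cover chr16:36156561-36156810 (plus strand), chr16:36183962-36184211 (plus strand) and chr16:36455393-36455642 (minus strand). Capitals mark the letters TGTGGAAAT, GAGGAGGAG and TTTAAAA.
Stfa2l1: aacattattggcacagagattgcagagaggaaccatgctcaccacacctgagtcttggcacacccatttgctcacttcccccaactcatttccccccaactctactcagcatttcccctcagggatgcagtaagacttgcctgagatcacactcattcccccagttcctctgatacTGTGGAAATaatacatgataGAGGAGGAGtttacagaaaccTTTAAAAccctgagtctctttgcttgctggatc
Cstdc4: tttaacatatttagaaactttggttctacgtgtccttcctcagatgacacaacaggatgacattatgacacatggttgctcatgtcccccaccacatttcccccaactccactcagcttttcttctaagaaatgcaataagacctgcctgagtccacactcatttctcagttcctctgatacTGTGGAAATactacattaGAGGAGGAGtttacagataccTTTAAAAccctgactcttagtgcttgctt
Stfa3: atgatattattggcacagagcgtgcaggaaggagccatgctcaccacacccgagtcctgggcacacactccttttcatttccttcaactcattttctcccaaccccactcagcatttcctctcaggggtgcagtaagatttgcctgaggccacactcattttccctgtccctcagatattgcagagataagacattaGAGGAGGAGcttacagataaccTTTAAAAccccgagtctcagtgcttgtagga

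GAGGAGGAG began 50 to 54 bases before the RefSeq start in all 5 members and TTTAAAA, 29 to 33 bases before it. For Stfa1 and Stfa2 the RefSeq start lies inside the gene interval given above, which comes from another annotation. On either strand, GAGGAGGAG occurs in 2.75% of 32851 mouse promoters of the same length and TTTAAAA in 8.10%. The members diverge in the bases just before GAGGAGGAG, and the 30 bases that end with its first letters are given for all 5, with TGTGGAAAT in capitals. They lie at chr16:36156731-36156760, chr16:36184136-36184165, chr16:36277071-36277100, chr16:36408410-36408439 and chr16:36455442-36455471 in the order shown. Those of Stfa1 and Stfa2 fall within the gene intervals given above, so they are upstream of the RefSeq start only.
Stfa2l1: tgatacTGTGGAAATaatacatgatagagg
Cstdc4: tctgatacTGTGGAAATactacattagagg
Stfa1: tcagataatgtggagataagacactagagg
Stfa2: agaaagactggctattatacattacagagg
Stfa3: tcagatattgcagagataagacattagagg

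TGTGGAAAT stood 74 bases before the start in Stfa2l1 and 68 bases before it in Cstdc4, and in none of the other 3 members searched. It occurs in 91 of the 32851 promoters, or 0.277%. The run was picked after the members had been compared, so its presence is a description of 2 related sequences and not a site. Stfa1 held TGTGGAGAT at the corresponding place, 69 bases before its RefSeq start, a run found in 0.231% of promoters. Looser patterns did not separate the members, as TTNNGNAA was found in 4 of 5 members and 36.8% of all promoters, and TGNNGNAA, which overlaps TGTGGAAAT in both genes, in 5 of 5 and 41.0%. The stretches before the RefSeq start matched at 91.9% for Stfa2l1 and Stfa2 and at 84.8% for Stfa2l1 and Cstdc4. The pair that shared TGTGGAAAT was thus not the pair most alike as a whole.

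Stfa2l1 and Cstdc4, both stefin A genes, were abundant in cluster 2 and far lower elsewhere. In cluster 2, Stfa2l1 was measured at 2224, 2519 and 2862 CPM in the 3 femur libraries and at 1954, 2087 and 1819 CPM in the 3 mandible libraries. Cstdc4 was measured there at 1954, 3119 and 2827 CPM in femur and at 2626, 2317 and 2858 CPM in the mandible. For each of these genes the lowest library of cluster 2 lay above the highest library of every other cluster. A UMI counts a transcript once whatever its length, and the ranges of the 2 genes overlapped. Cstdc4 had the larger share of windows in common with relatives, and what that does to its counts was not tested.

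Clusters 7 and 1 came next for both genes. Stfa2l1 averaged 432 CPM in cluster 7 and 331 CPM in cluster 1, and between 42.8 CPM (cluster 4) and 121 CPM (cluster 8) in the other 6 clusters. Cstdc4 averaged 458 CPM in cluster 7 and 200 CPM in cluster 1, and fell to 28.8 CPM in cluster 3. Ranges of neighbours in these orders overlapped, apart from the step from cluster 2 to cluster 7. Within each library, cluster 2 exceeded cluster 3 by a median of 41.2 times for Stfa2l1 (range 28.3 to 68.4). For Cstdc4 the median was 117 times (range 55.3 to 179). Both clusters were late neutrophil-like and similar in Retnlg, but Il1b was at 739 CPM in cluster 2 and 63.5 CPM in cluster 3.

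**Figure D1:**
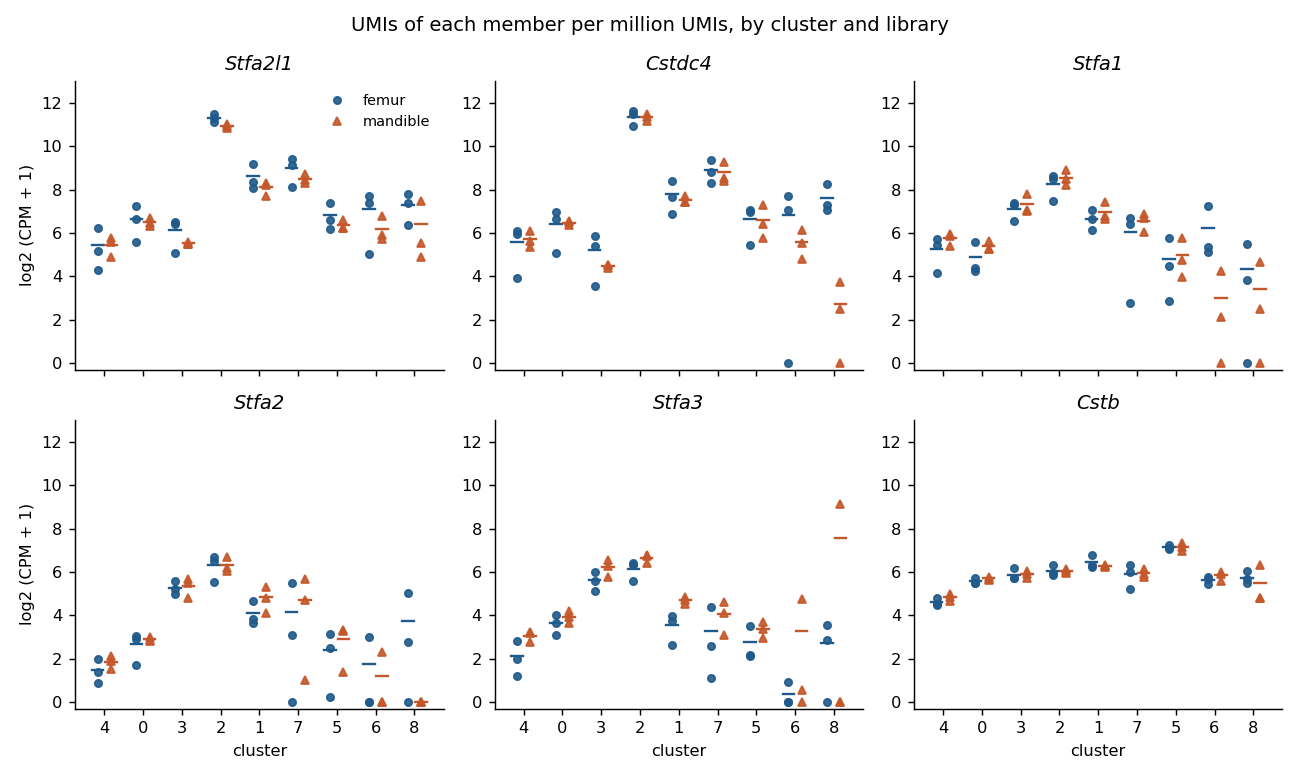
Level of each member as log2 (CPM + 1) in the 9 clusters, with femur libraries as circles, mandible libraries as triangles and the log2 of the site's mean CPM + 1 as a bar. Stfa2l1 and Cstdc4 stood near 11 in cluster 2 and at 3 to 10 in nearly all other sums, Stfa1 and Stfa2 had their highest means in clusters 2 and 3, Stfa3 was high there and in 1 library of cluster 8, and Cstb stayed between 4 and 8 with its highest values in cluster 5.

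Stfa1, Stfa2 and Stfa3, the remaining stefin A members, had another pattern, with cluster 3 close behind cluster 2. Stfa1 was measured in cluster 2 at 178, 394 and 356 CPM in femur and at 291, 354 and 471 CPM in the mandible. In cluster 3 it was measured at 91.9, 155 and 165 CPM in femur and at 126, 134 and 222 CPM in the mandible. Cluster 2 was thus the higher in all 6 libraries, by a median of 2.23 times (range 1.93 to 2.65), and cluster 3 in turn exceeded cluster 1 in all 6, by a median of 1.29 times. The gap between clusters 2 and 3 was far smaller than for Stfa2l1 and Cstdc4.

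Stfa2 was scarcer, and it is the member whose transcript is nearly that of Stfa2l1. It was measured in cluster 2 at 45.4, 90.7 and 103 CPM in femur and at 64.9, 102 and 72.0 CPM in the mandible, and in cluster 3 at 27.2 to 50.7 CPM. Cluster 2 exceeded cluster 3 by a median of 1.97 times, against the 41.2 times of Stfa2l1. Elsewhere Stfa2 averaged 21.9 CPM in cluster 1 and 1.83 to 21.4 CPM in the other 6 clusters.

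Stfa3 was measured in cluster 2 at 46.4, 79.2 and 84.6 CPM in femur and at 109, 83.2 and 106 CPM in the mandible. In cluster 3 it was measured at 47.6, 33.8 and 62.7 CPM in femur and at 92.1, 53.0 and 77.5 CPM in the mandible. The ranges of these 2 clusters overlapped, and cluster 2 was the higher in 5 of 6 libraries. The next cluster, cluster 1, averaged 18.0 CPM and did not overlap with cluster 3. The mean of 96.6 CPM in cluster 8 came from mandible replicate 3, where 2 of 15 cells held 63 UMIs of Stfa3, 34 of them in a single cell. In the other 5 libraries of that cluster Stfa3 was at 0 to 10.7 CPM.

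Cstb, the gene of cystatin B, had its highest level outside the neutrophil-like clusters. In the monocyte-like cluster 5 it was measured between 123 and 159 CPM, with a mean of 141 CPM, and that range did not overlap with any other cluster. Cluster 1 followed with a mean of 81.7 CPM (range 73.8 to 108). Clusters 2, 7, 3, 6, 0 and 8 averaged from 65.1 down to 48.3 CPM with overlapping neighbours, and the precursor-like cluster 4 was lowest at 25.5 CPM. The means of Cstb thus differed by 5.52-fold between clusters 5 and 4, and those of Stfa2l1 by 52.4-fold between clusters 2 and 4.

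In cluster 2, a UMI of Stfa2l1 was found in 79.4% of the 9629 cells, of Cstdc4 in 71.8%, of Cstb in 31.1%, of Stfa1 in 14.2%, of Stfa3 in 8.1% and of Stfa2 in 6.8%. Cells labelled as B cells within cluster 6, which should lack stefin A, were taken as the background. Whether their UMIs came from free transcripts, doublets or mislabelled cells was not tested. There a UMI of Stfa2l1 was found in 0 to 9.30% of cells per library, of Cstdc4 in 0 to 11.4%, of Stfa1 in 0 to 1.63%, of Stfa2 in 0 to 2.78% and of Stfa3 in 0 to 0.291%. The median depth was 3894.5 UMIs in these 858 cells and 5757 UMIs in cluster 2. The stefin A shares of cluster 2 lay above these shares in every case. Cstb was found in 18.3 to 28.5% of the same B cell-labelled cells, at 48.8 to 61.0 CPM, so a UMI of Cstb was nearly as frequent there as in cluster 2.

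Every cell of cluster 2 held at least 1 UMI of Stfa2l1 or Cstdc4, with a median of 26 UMIs of the pair and a highest of 255 UMIs of the pair. In cluster 3, 75.6% of cells held neither, and the highest cell had 32 UMIs of the pair, whereas Stfa1 reached 117 UMIs in that cluster. In clusters 0, 4 and 5, 73.6 to 78.6% of cells held neither. The clusters had been formed by the authors from expression values of these same cells, and whether these genes were among those used is not given. The sharp edge between clusters 2 and 3 is therefore a description and not an independent measurement. The site tests within a cluster rest on the same sorting of cells. What that sorting does to the site values of Stfa2l1 and Cstdc4 was not tested. Only the site comparison over all cells does not depend on it.

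Cells rich in a stefin A member, with at least 10 UMIs of it, occurred in every cluster. They were 13234 of the 69776 cells, or 19.0%. The share was 88.6% in cluster 2, 20.4% in cluster 7 and 9.75% in cluster 1. It was 5.55 to 7.73% in clusters 0, 3, 4 and 5 and 2.97% in cluster 6. Single cells with many UMIs of the 2 leading genes were thus found in the precursor-like and immature clusters as well, up to 217 UMIs in cluster 4 and 208 UMIs in cluster 0. These clusters were deeper, with a median of 21561 and 11168 UMIs per cell against 5757 in cluster 2. Per 10000 UMIs of the cell, the highest cell stood at 54.1 in cluster 4, 110 in cluster 0 and 367 in cluster 2. No doublets were removed, and whether such barcodes held more than 1 cell was not tested. In cluster 6 the summed stefin A level was 342 to 1197 CPM in the 138 cells labelled as neutrophils and 7.17 to 49.4 CPM in the cells labelled as B cells.

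A rich cell was mostly rich in 1 member, although it often held some UMIs of another. Of the 13234 rich cells, 9163 were rich in 1 member, 3592 in 2 and 479 in 3 or more, so that 69.2% were rich in 1 member. The most abundant member took a median of 88.9% of the stefin A UMIs of such a cell. In cluster 3 the share rich in a single member was 94.8% of 439 rich cells, of which 230 were rich in Stfa1, 117 in Stfa3, 70 in Stfa2, 36 in Stfa2l1 and 9 in Cstdc4. In cluster 2 it was 65.3% of 8533 rich cells. The limit of 10 UMIs was chosen after the data had been seen, and with at least 5 UMIs, at least 20 UMIs or at least 1000 CPM of the cell the overall share was 64.1, 78.5 and 67.3%.

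**Figure D2:**
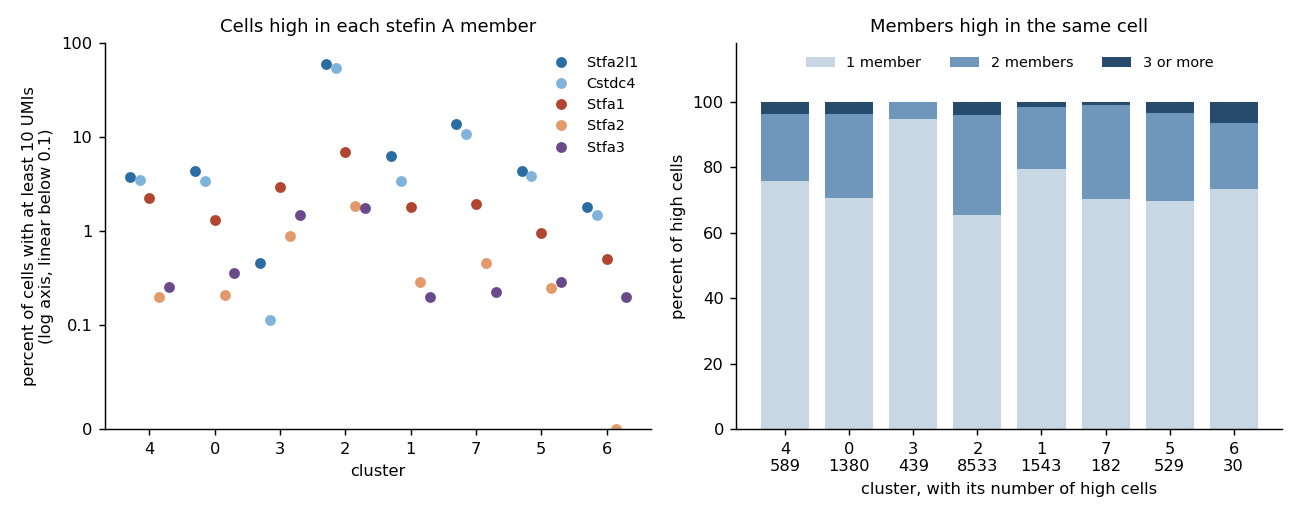
Left, percent of cells with at least 10 UMIs of each stefin A member in clusters 0 to 7, all libraries pooled, on a log axis that is linear below 0.1. Right, percent of those rich cells with 1, 2 or at least 3 members at that level, with the number of rich cells under each cluster. Cluster 3 is the cluster in which Stfa1, Stfa3 and Stfa2 exceed Stfa2l1 and Cstdc4, and the one with the highest share of rich cells that were rich in a single member, 94.8%.

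The members did not combine evenly. In clusters 0, 1 and 4, Stfa2l1 and Cstdc4 were found together. In cluster 0, 50.8% of the 653 cells rich in Cstdc4 were also rich in Stfa2l1, against 2.68% of the remaining cells, and the Pearson correlation of log counts over the 19261 cells was 0.512. In cluster 4 these shares were 45.1% and 2.28%, and in cluster 1 49.5% and 4.81%. The correlation was 0.528 in cluster 5, 0.507 in cluster 6, where 18 cells were rich in Stfa2l1, and 0.478 in cluster 7. In cluster 2, 46.5% of Cstdc4-rich cells were also rich in Stfa2l1 against 73.7% of the rest, with a correlation of −0.345. The share among Cstdc4-rich cells was thus near that of clusters 0, 1 and 4, and it was the rest that differed. Over the cells of all clusters the shares were 46.9% and 7.98%, with a correlation of 0.460. Every cell of cluster 2 held at least 1 UMI of the pair, and what that does to the correlation was not tested. In cluster 3, with 9 Cstdc4-rich cells and 36 rich in Stfa2l1, such cells were too few to compare. The points of these correlations are cells that share libraries and differ in depth.

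Stfa2 and Stfa3 were found together in some clusters, at lower counts. In cluster 0, 27.5% of the 40 Stfa2-rich cells were also rich in Stfa3, against 0.302% of the rest. The shares were 11.4% and 1.39% in cluster 3 and 8.57% and 1.63% in cluster 2. In clusters 0 to 3 the correlation of log counts of Stfa2 was higher with Stfa3 (0.14 to 0.20) than with any other stefin A member. In cluster 4 it was not, and the 15 Stfa2-rich cells there were too few to read a share of Stfa3-rich cells from. Stfa2-rich cells were rich in Cstdc4 in 27.5% of cases in cluster 0, against 3.34% of the rest, and in 69.7% in cluster 2, against 53.4%. Of those in cluster 2, 18.9% were rich in Stfa1, against 6.72% of the rest. Of the 251 Stfa1-rich cells of cluster 0, 26.3% were rich in Stfa2l1, 1.20% in Stfa2 and 1.20% in Stfa3, against 4.02%, 0.195% and 0.347% of the rest. Stfa2 and Stfa3 are next to each other among the members toward the right end of the array, and Stfa2l1 and Cstdc4 are neighbours toward the left end, with Stfa1 between them.

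The counts of relatives were also read in the cells deepest in a single member. Among 469 cells with at least 50 UMIs of Stfa2l1 (median 59), Stfa2, its nearest relative, was at 0 in 82.9%. Among 239 cells with at least 50 UMIs of Stfa1 (median 64), Stfa2l1 was at 0 in 49.8% and Stfa2 in 87.0%. Among 995 such cells of Cstdc4 (median 63), Stfa2l1 was at 0 in 28.5%. Among 17 cells with at least 50 UMIs of Stfa2 (median 62), Stfa2l1 was at 0 in 29.4% and had a median of 23 UMIs. The genes differ in how often they were found at all. Over all cells, a UMI was found in 21.3 to 34.0% of cells per library for Stfa2l1 and 1.59 to 2.93% for Stfa2. In cluster 2 these shares were 75.2 to 82.2% and 5.46 to 7.44%. The shares at 0 therefore do not measure how far reads of relatives were kept apart.

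Set as shares of the UMIs of the 5 stefin A members, cluster 2 was made up of Cstdc4 (43.9 to 53.7% over the 6 libraries), Stfa2l1 (from 34.2% to about 50%) and Stfa1 (4.0 to 8.84%). In cluster 3 Stfa1 took 40.7 to 53.8%, Stfa3 8.84 to 29.7%, Stfa2l1 11.5 to 23.4% and Cstdc4 4.98 to 14.8%. Stfa2 took 1.02 to 2.07% in cluster 2 and 8.01 to 16.7% in cluster 3. The ranges of the 2 clusters did not overlap for any of the 5 members. This is again a description, since the clusters were formed from expression values of these same cells.

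**Figure D3:**
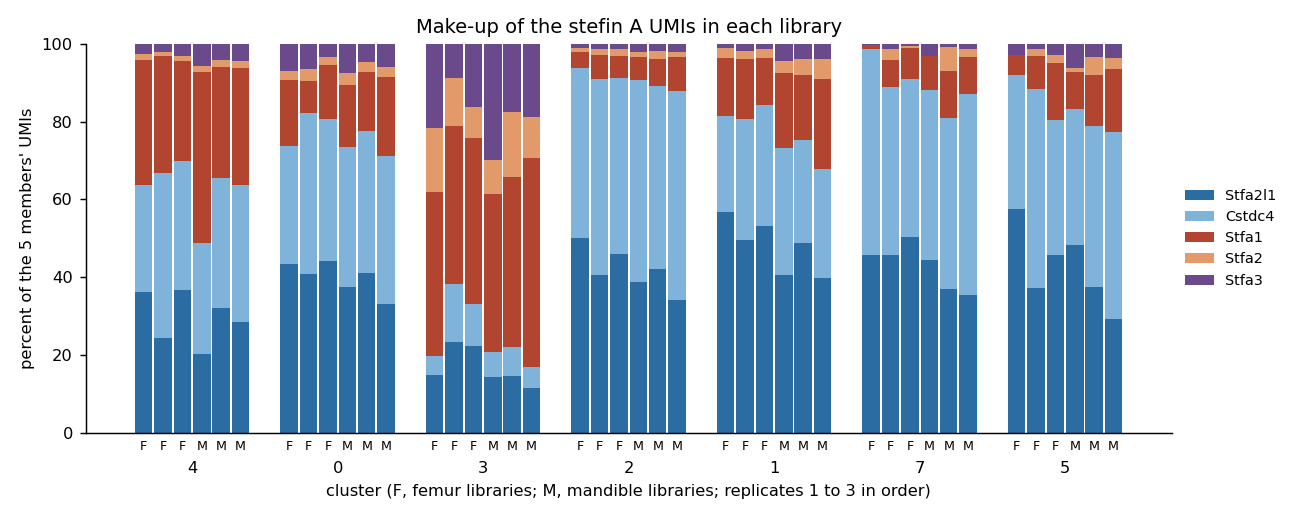
Percent of the UMIs of the 5 stefin A members that each member contributed in every library of 7 clusters, with femur libraries left (F) and mandible libraries right (M) within a cluster. In all 6 libraries of cluster 3 Stfa1 is the largest part, at 40.7 to 53.8%, and in all 6 of cluster 2 Stfa2l1 and Cstdc4 make up most of the bar.

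Within cluster 5 the reference labels deposited by the authors separated the family from Cstb. In the 2529 cells labelled as neutrophils, the summed stefin A level was 342 to 616 CPM (median 464), and Cstb was at 68.0 to 99.3 CPM. In the 3734 cells labelled as monocytes, the stefin A sum was 5.96 to 105 CPM (median 18.5), and Cstb was at 158 to 236 CPM. The ranges of the labels did not overlap for either measure. The stefin A counts of cluster 5 thus came mainly from cells labelled as neutrophils and its Cstb counts from the other labels. In the 482 cells labelled as macrophages, Cstb was at 259, 346 and 426 CPM in femur and 184, 207 and 239 CPM in the mandible, above the monocyte label in 5 of 6 libraries but with overlapping ranges. These sums hold 48 to 319 UMIs of Cstb each, and no test was run on the label.

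**Figure D4:**
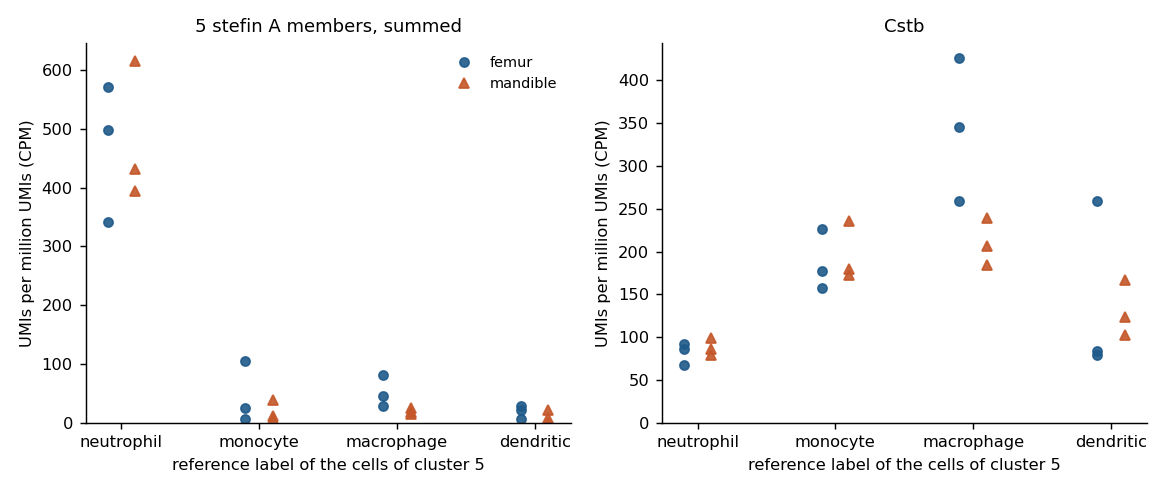
Summed CPM of the 5 stefin A members (left) and CPM of Cstb (right) in cells of cluster 5, split by reference label, with 1 point per library and both axes linear from 0. Stefin A stands at 342 to 616 CPM in the neutrophil label and at most 105 CPM in the others, and Cstb is lowest, at 68.0 to 99.3 CPM, in the neutrophil label apart from some dendritic cell sums.

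The genes most like the family in their levels over the 54 library and cluster sums were looked up among 2953 genes. The stefin A sum was followed most closely by Sfxn5 (Pearson r = 0.758), Cd101 (0.748), Jaml (0.744), H2-Q10 (0.743) and Csf3r (0.741), the last of which encodes the receptor for granulocyte colony-stimulating factor. All 5 had their highest mean in cluster 1 and not in cluster 2. Cstb was followed by the lysosomal genes Laptm5 (0.860), Psap (0.860) and Cd68 (0.858), and by Slfn5 (0.850) and Epn1 (0.845), all 5 highest in cluster 5. The stefin A sum and Cstb had r = 0.226. The sums share libraries and differ in depth, and no test was made.

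Other cystatins and the cathepsins that stefins inhibit were read from 2 lists. Of 15 other cystatin genes in the matrices, 4 reached a mean of 10 CPM in any cluster. The list held 22 symbols, and of the remaining 7 BC100530, BC117090, Gm5416 and Gm5483 are the annotation's names of Cstdc5, Cstdc6, Csta3 and the member Cstdc4. Cstdc5, another gene of the array, had a mean of 170 CPM in cluster 2 and 81.8 CPM in cluster 3, and so resembled Stfa1 rather than Stfa2l1. Csta3 was highest in cluster 2 too, at 20.6 CPM. Cst3, which encodes the secreted cystatin C, was highest in cluster 5 at 1619 CPM, and Cst7, which encodes cystatin F, in cluster 4 at 13.9 CPM. Of 11 genes of cysteine cathepsins and the related legumain, all were in the matrices, 8 reached 10 CPM and 6 of those 8 were highest in cluster 5. There Ctss averaged 1021 CPM, Ctsb 886 CPM, Ctsc 470 CPM, Ctsh 317 CPM, Ctsz 273 CPM and Lgmn 132 CPM. In cluster 2, the cluster richest in stefin A, Ctss averaged 14.9 CPM, Ctsb 55.9 CPM, Ctsc 16.9 CPM, Ctsh 72.8 CPM, Ctsz 47.4 CPM and Lgmn 1.85 CPM. Ctsl was highest in cluster 1 at 97.6 CPM and stood at 84.0 CPM in cluster 2, and Ctso was highest in cluster 6 at 45.9 CPM.

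Femur- and mandibular-derived cells were compared for each cluster and for all cells with edgeR over all genes, with log2 fold changes given as mandible over femur. The 6 members gave 54 tests in 10 comparisons, and the other 6 pairs of member and comparison (Stfa2 and Stfa3 in cluster 6 and Stfa1, Stfa2, Stfa3 and Cstb in cluster 8) fell under the filter on low counts. No member passed a false discovery rate of 0.05 in any comparison by edgeR. An unadjusted edgeR p under 0.05 was found in 8 of the 54 tests, a larger share than the 1.1 to 13.6% of all genes in a comparison. They were Stfa3 in clusters 1, 2 and 4, Stfa2 in cluster 1, Stfa1, Stfa2l1 and Cstdc4 in cluster 6, and Cstdc4 in cluster 8. In the small clusters 6 and 8 the share of all genes was 4.04 and 1.1%. The tests share libraries, and no test was made on their number. DESeq2 called 2 of 60, in clusters 1 and 8, where it called 2.73 and 0.0141% of all genes. Over the 10 comparisons DESeq2 called 1072 genes and edgeR 24. The share of all genes called by edgeR was small too, at 0.0163% in cluster 0, 0.0842% in cluster 1, 0.0416% in cluster 2, 0.0108% in cluster 3, 0.0245% in cluster 4, 0.0842% in cluster 7 and 0% in clusters 5, 6 and 8 and in all cells. The p-values measure the spread between these libraries, since nothing says how many animals stand behind each.

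Stfa3 was the member with the highest fold change toward the mandible. In cluster 1 it was measured at 5.15, 12.5 and 14.8 CPM in femur and at 22.3, 25.5 and 27.9 CPM in the mandible. Every mandible library was thus above every femur library, as was the case in either direction for 21.8% of the genes of that cluster. The mean level was 10.8 ± 5.05 CPM in femur-derived cells and 25.2 ± 2.83 CPM in mandibular-derived cells (SD, n = 3 each), and the log2 fold change was 1.34 ± 0.32 (SE), with an adjusted p of 0.140 by edgeR. DESeq2, which called 2.73% of genes in cluster 1, gave an adjusted p of 0.00370 for it. Without femur replicate 1, the lowest library, the log2 fold change was 1.01 and the edgeR adjusted p was 0.107.

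The other comparisons of Stfa3 had the same direction. Its log2 fold change was above 0 in 8 of 8 fits, from 0.36 to 1.34. It was 0.52 ± 0.23 in cluster 2 (edgeR adjusted p = 0.391) and 1.03 ± 0.45 in cluster 4 (edgeR adjusted p = 0.374). In cluster 2 the femur and mandible values of Stfa3 overlapped. Without femur replicate 1 the 8 values ran from 0.10 to 1.01. The clusters share libraries, so the 8 fits are not independent of each other. As a share of the stefin A UMIs of cluster 2, Stfa3 took 1.23 ± 0.162% in the femur and 1.95 ± 0.244% in the mandible (SD, n = 3 each; exact permutation test, 2-sided, p = 0.1, the smallest p that 3 against 3 libraries allow, adjusted p = 0.25 over 5 members).

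Stfa2l1 pointed the other way. Its log2 fold change was below 0 in 10 of 10 fits, from −0.02 in cluster 4, where the mean levels of 42.7 CPM in femur and 42.9 CPM in the mandible gave no direction, to −1.09 in cluster 6. Without femur replicate 3 it turned to 0.44 in cluster 0, 0.0551 in cluster 1 and 0.74 in cluster 4, and without mandible replicate 1 to 0.19 in cluster 4. A replicate block on the library number, over 4 libraries, gave −0.57 ± 0.14 in cluster 1 and −0.48 ± 0.11 in cluster 4. Both were called there, as were 14.1 and 3.67% of all genes. In cluster 2 the level averaged 2535 ± 320 CPM in femur-derived and 1953 ± 134 CPM in mandibular-derived cells (SD, n = 3 each), with no overlap of the libraries given above, as for 14.9% of the genes of that cluster. The log2 fold change was −0.34 ± 0.19, with an edgeR adjusted p of 0.538, and without femur replicate 1 it was −0.44. A UMI of Stfa2l1 was found in 81.0 ± 1.38% of the cells of cluster 2 in the femur and in 76.4 ± 1.96% in the mandible (exact permutation test, 2-sided, p = 0.1, adjusted p = 0.6 over 6 members). After each cell had been thinned to 1000 UMIs these shares were 70.2 and 62.9%. As a share of the stefin A UMIs of that cluster it took 45.5 ± 4.71% and 38.4 ± 4.04% (exact permutation p = 0.2).

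For the remaining members the site values in cluster 2 overlapped, with log2 fold changes near or under their standard errors. The log2 fold change was 0.02 ± 0.20 for Cstdc4, 0.30 ± 0.29 for Stfa1, 0.03 ± 0.32 for Stfa2 and 0.00 ± 0.19 for Cstb. Femur replicate 1 had the lowest level of the 6 libraries in cluster 2 for 5 of the 6 members, all but Stfa2l1. Stfa2 in cluster 1 was measured at 11.6, 13.4 and 24.0 CPM in femur and at 16.3, 27.0 and 39.2 CPM in the mandible, and its log2 fold change was 0.85 ± 0.36, at an adjusted p of 0.341 by edgeR. Over all cells Cstb was measured at 55.0, 61.7 and 61.8 CPM in femur and at 64.7, 68.6 and 62.1 CPM in the mandible. These did not overlap, as for 10.1% of genes, yet the log2 fold change was 0.09 ± 0.14.

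**Figure D5:**
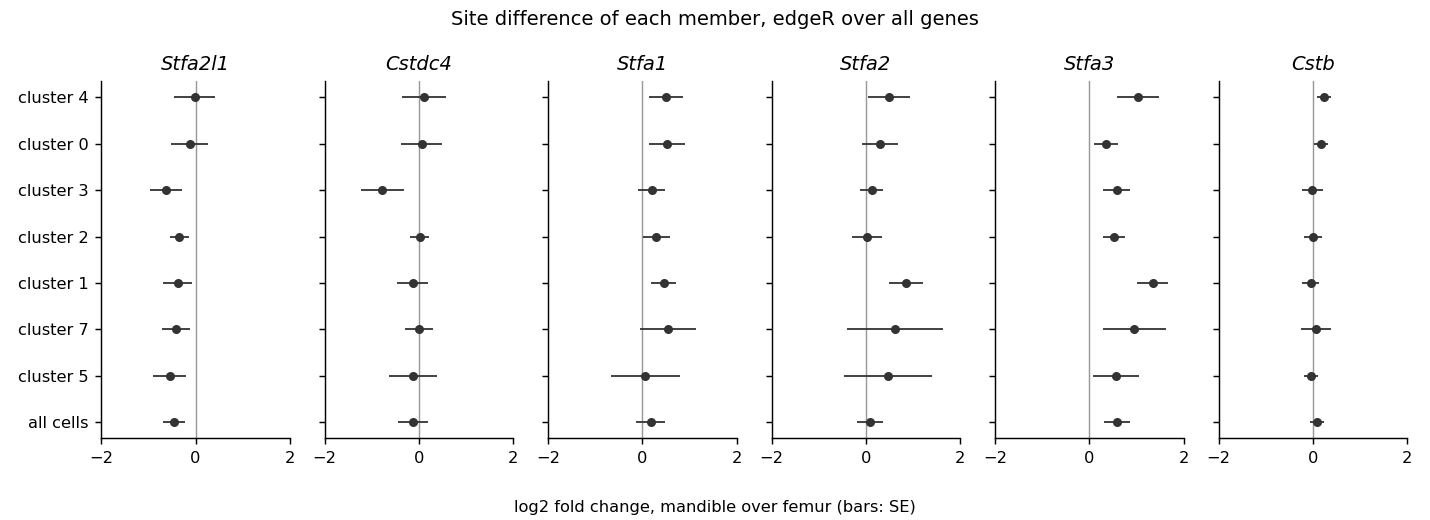
Log2 fold change of each member, mandible over femur, with its SE as a bar, from edgeR fits over all genes for clusters 0 to 5, cluster 7 and all cells. Values of Stfa3 lie right of 0 in all 8 rows (0.36 to 1.34) and those of Stfa2l1 left of 0 in all 8, and no value passed a false discovery rate of 0.05.

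Of 7 marker lists summed per library, 3 did not overlap between the sites in clusters 1 and 2, where 21.8% and 14.9% of all genes did not. The other 4 lists (neutrophil precursor, late neutrophil, B cell and erythroid) overlapped in both clusters. The summed level of 4 immature neutrophil genes (Ltf, Camp, Ngp and Lcn2) was 2869 to 6598 CPM in femur and 6727 to 15375 CPM in the mandible in cluster 1, and 6181 to 12154 CPM against 13986 to 21609 CPM in cluster 2. The summed level of 4 monocyte genes (Csf1r, Ccr2, Ly6c2 and F13a1) was 320 to 424 CPM in femur and 512 to 643 CPM in the mandible in cluster 1, and 526 to 667 CPM against 748 to 853 CPM in cluster 2. Ly6c2 made up most of that sum, at a mean of 392 CPM in cluster 1 and 642 CPM in cluster 2, and it was high in the neutrophil-like clusters 0 and 3 as well, at 908 and 1041 CPM. The enamel and dentin genes named above were higher in the mandible as well. Their part in the site values of the members was not tested.

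The small clusters 6 and 8 held the largest negative values. In cluster 8 Cstdc4 was measured at 153, 305 and 133 CPM in the femur (186, 37 and 21 UMIs) and at 4.59, 12.4 and 0 CPM in the mandible (1, 6 and 0 UMIs). These sums came from 160, 15 and 11 cells in the femur and 13, 60 and 15 cells in the mandible. Of all these cells, 4 held at least 10 UMIs of Cstdc4, and the highest held 36 UMIs. The log2 fold change was −4.54 ± 0.69 (edgeR adjusted p = 0.120). DESeq2, which called 0.0141% of genes there, gave an adjusted p of 0.000850, and the edgeR fit without femur replicate 1, which called 0.0416% of genes, gave 0.0275. In cluster 6 Stfa1 was measured at 148, 39.4 and 33.9 CPM in femur and at 0, 18.1 and 3.31 CPM in the mandible, from 0 to 42 UMIs per library. In femur replicate 1 all 42 UMIs lay in a single cell labelled as a neutrophil. Stfa1 had a log2 fold change of −2.81 ± 0.68 there and an adjusted p of 1.00 by edgeR. Cstdc4 and Stfa2l1 had −1.39 ± 0.60 and −1.09 ± 0.44 there. Cells labelled as neutrophils, 138 of the cluster, held most stefin A UMIs of cluster 6, as given above.

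Without the filter on low counts, edgeR called more genes and with them more members. It called Stfa2 and Stfa3 in cluster 1, where it called 2.64% of all genes, and Stfa2l1 and Cstdc4, both lower in the mandible, in cluster 3, where it called 0.684%. It called Stfa3 in cluster 4 (2.02% of all genes), Stfa2l1, Cstdc4 and Stfa1 in cluster 6 (0.221%), and Cstdc4 and Stfa3 in cluster 8 (0.311%). The call of Stfa3 in cluster 8 rests on the 2 cells of mandible replicate 3.

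Whether a site difference was itself different in another cluster was tested with limma on the difference between each cluster and cluster 2 within a library. None of the 30 tests of the members passed a false discovery rate of 0.05, 2 had an unadjusted p under 0.05, as had 8.39 to 15.2% of all genes, and the share of all genes called was 0% for each of the 5 clusters tested (0, 1, 3, 4 and 5). The larger of the 2 was Stfa3 in cluster 1, whose site difference exceeded that in cluster 2 by 0.88 ± 0.20 on the log2 scale (limma adjusted p = 0.398).

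No gene of the 2 lists was called between the sites by edgeR in any of the 10 comparisons, with 0 to 2 unadjusted p under 0.05 in each list and comparison. DESeq2 called 1 of them, Ctsk, the cathepsin known from osteoclasts, in cluster 5, where it called 0.451% of all genes. Ctsk was at a log2 fold change of −2.91 ± 0.81 by edgeR (SE, adjusted p = 0.606) and had an adjusted p of 0.00728 by DESeq2, at a mean of 5.25 CPM (range 1.18 to 17.6), and it is named after its value was seen. In cluster 2 the median log2 fold change was 0.04 over 5 other cystatins and 0.07 over 8 cathepsins, against 0.00 over all genes. In cluster 1 these medians were 0.30 over 4 cystatins and −0.29 over 9 cathepsins, and over all 10 comparisons they ran from −0.77 to 0.86 and from −0.29 to 0.22. Cstdc5 was at 0.88 ± 0.38 in cluster 1 and 0.04 ± 0.32 in cluster 2.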

How the data were processed

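CD11b+ bone marrow cells of 3 femur and 3 mandible libraries were measured by 10x 3′ single-cell RNA sequencing. The count matrices deposited by the authors hold UMI counts per gene and cell barcode. They were made with Cell Ranger on mm10 per the labels (7.0.1 in the submitters' processing notes, 7.1.0 in the file header). The metadata table of the authors gives, for the kept cells (600 to 6000 genes, mitochondrial share up to 20 percent), UMIs, the mitochondrial percent, Seurat clusters of the integrated data, and SingleR cell type labels from the ImmGen reference. The deposited marker table holds the authors' own cluster comparisons, as fold changes and p-values, and was not used.

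The members and lists were chosen with earlier results of these data known. UMIs of kept cells were summed per library and cluster and given as CPM. The sites were set against each other by quasi-likelihood fits in edgeR 4.0.16 (R 4.3.3) with TMM scaling, the default low-count filter and a false discovery rate of 0.05 over all genes tested, in place of the study's test over cells. Cluster by site differences were tested with limma 3.58.1 on log2 CPM (prior count 2), and shares with exact permutation tests over 20 assignments (scipy 1.17.1). DESeq2 1.42.0 was an alternative, as were no filter, each library left out, replicate blocks, and leaving out the 5% of cells with the most UMIs, which stands in for a doublet filter, since no doublets were removed here. Scripts were tested on simulated data. Levels between clusters were not tested. Beside the cell type markers, genes named beyond the members are those of the 2 lists that reached 10 CPM in any cluster mean (Ctsk, below that, was added after its value was seen), and the 5 genes most correlated with the stefin A sum or Cstb on log2 (CPM + 1) among genes with at least 100 CPM. Positions come from GENCODE and RefSeq on GRCm38. A count of 0 allows up to 3 UMIs, and limits cover counting error only.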

Additional observations from a re-analysis of the deposited data

Results flagged for a closer look

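Stefin A transcripts were also present in barcodes that the authors had left out and that enter no comparison. Of 4315 such barcodes, 202 held at least 10 UMIs of a stefin A member, or 4.68% (95% exact binomial interval 4.07 to 5.35%, for counting error over barcodes pooled from 6 libraries). Femur replicate 1, with 18.5% of its barcodes left out, weighed most in that pool. Of the 480 barcodes with over 6000 genes 186 were rich in a member, and of the 3739 with under 600 genes 2 were. The 2 groups differed in depth, with 29146816 and 3209288 UMIs in all, so a limit of 10 UMIs does not compare them. Stfa2l1 was at 146 CPM in the barcodes with over 6000 genes and 183 CPM in those with under 600 genes. Cstdc4 was at 154 and 124 CPM in the same order. Summed over all left-out barcodes, Stfa2l1 was at 154 CPM, Cstdc4 at 155 CPM, Stfa1 at 39.2 CPM, Stfa2 at 8.40 CPM, Stfa3 at 10.6 CPM and Cstb at 81.3 CPM. How many of these barcodes hold more than 1 cell was not tested.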

How the results depend on the processing

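With 28 fold changes of the members followed through 306 alternatives, 285 kept their direction, and Stfa3 stayed above 0 in 88 of 88. The 28 were all members in cluster 2 and every fit of Stfa3 and Stfa2l1. Added to these were Stfa2 in cluster 1, Cstdc4 in clusters 3, 6 and 8, Stfa1 in cluster 6 and Cstb in all cells. The rest of the 54 fits were not followed, and the alternatives reuse the same libraries. Counts of members called by edgeR were 0 throughout at the chosen settings. DESeq2 called 1 in cluster 1 and 1 in cluster 8. Without the filter, edgeR called 2 in cluster 1, 2 in cluster 3, 1 in cluster 4, 3 in cluster 6 and 2 in cluster 8. Leaving out 1 library gave 0 to 1 in cluster 8, with the 1 (Cstdc4) without femur replicate 1. The 2 kinds of replicate number were used as a block in turn. A replicate block on the library number, with the 4 libraries numbered 6 and 7, called 3 in cluster 1, 3 in cluster 3, 2 in cluster 4, 3 in cluster 6 and 1 in cluster 7, where it called 14.1, 5.28, 3.67, 1.03 and 1.36% of all genes. These were Stfa2l1 in each of the 5, Cstdc4 in clusters 1, 3, 4 and 6, Stfa3 in clusters 1 and 3 and Stfa1 in cluster 6. A block on the title number called 1 in cluster 8, where it called 0.466% of all genes, and otherwise none. The labels do not say what either number marks. In cluster 0 the deviations of same-titled libraries correlated at −0.400 to 0.103, and those of the 2 pairs by library number at 0.436 and 0.377. The pairs by library number stood at 0.501 and 0.292 in cluster 1, 0.478 and 0.318 in cluster 2 and 0.469 and 0.346 in cluster 3. They were above 0 in every comparison but that of the small cluster 8, where they stood at −0.633 and −0.166.

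In cluster 2 the log2 fold change turned to −0.16 for Stfa1, −0.18 for Stfa2 and −0.20 for Cstdc4 with the library block. Without the filter it was −0.0012 for Stfa2, −0.0100 for Cstdc4 and −0.0244 for Cstb, for which DESeq2 gave −0.0036. With each library left out in turn it ran from −0.26 to 0.35 for Stfa2, −0.17 to 0.15 for Cstdc4 and −0.12 to 0.24 for Cstb. For Stfa2l1 it ran from −0.49 to 0.44 in cluster 0, −0.60 to 0.0551 in cluster 1 and −0.39 to 0.74 in cluster 4, each highest without femur replicate 3, and the title block gave 0.0651 in cluster 0 and 0.18 in cluster 4. For Cstb in all cells it ran from −0.0018 to 0.23. The site difference in the share of cluster 2 cells with Stfa2l1 moved to −7.35 percentage points after thinning. The mean level of Cstb in cluster 5 was 159 CPM as a mean of the cells' own CPM and 85.2 CPM in neutrophil-labelled cells. The cause was not tested. The 3 libraries a site limit the tests, as do the few UMIs of members in clusters 6 and 8.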
